A study of Mus musculus with 9 samples.

Results

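The neurotrophin receptor and sortilin genes described here are Ntrk2, Ntrk3, Ngfr, Sort1, Sorcs1, Sorcs2 and Sorcs3. They were taken by gene symbol as 7 of the 24054 rows of an expression table from primary mouse cortical neurons. The neurons came from wild-type C57BL/6 mice, and 9 libraries of polyadenylated RNA were sequenced, 3 per group. Neurons of the first group were kept at 0.2% oxygen for 7 hours with 10 nM added triiodothyronine (T3, the active thyroid hormone), those of the second at 0.2% oxygen for 7 hours without added T3, and those of the third in normoxia. The groups are called hypoxia with T3, hypoxia and normoxia, and each library carries the number in its column header, 11 to 13, 7 to 9 and 1 to 3 in that order of groups. All cultures were 6 days old and had grown in Neurobasal medium with the B27 supplement, whose published recipe contains T3, so the hormone comparison is one of added T3. The design text names a model of hypoxic injury to neurons. It contrasts low oxygen with normoxia, and added T3 with its absence in low oxygen.

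Neurotrophins are secreted growth factors that promote the survival, branching and synaptic strength of neurons. The Trk receptors are tyrosine kinases: TrkB, made by Ntrk2, binds BDNF and NT-4, and TrkC, made by Ntrk3, binds NT-3. The p75 neurotrophin receptor, made by Ngfr, binds all mature neurotrophins and, together with sortilin or SorCS2, the uncleaved proneurotrophins, which can signal cell death or growth cone retraction. Sortilin (Sort1) and its relatives SorCS1, SorCS2 and SorCS3 carry a VPS10 domain and sort cargo between the Golgi, endosomes and cell surface; sortilin also takes part in the axonal transport of Trk receptors and the sorting of BDNF.

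Every value is a TMM-normalized CPM, the reads of a gene relative to the size of its library after the authors' scaling. Reads recovered from the values came to 17182338 in hypoxia 7 and 23294636 to 33937842 in the other libraries, so that 1 read was worth 0.03021 to 0.05651 CPM. No label states that the libraries within a group are separate cultures, so p-values measure the spread between libraries, which may be technical. Genes used as checks on the labels moved with the groups: Slc2a1, a glucose transporter gene that responds to low oxygen, stood at 71.8 to 89.2 CPM in hypoxia with T3, 47.8 to 60.0 CPM in hypoxia and 9.24 to 10.1 CPM in normoxia, and Hk2, a hexokinase gene, at 84.5 to 108, 44.3 to 88.6 and 1.29 to 2.02 CPM in the same order. Thrb, which encodes a thyroid hormone receptor, stood at 4.41 to 6.21 CPM in hypoxia with T3, 9.95, 13.5 and 9.74 CPM in hypoxia and 27.4, 27.9 and 28.7 CPM in normoxia, so that it was lower in both low-oxygen groups and is no check specific to T3.

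In hypoxia, 6 of the 7 genes fell relative to normoxia and the seventh, Ngfr, did not pass the test. The fall left between 50.9% (Ntrk2) and 78.9% (Sort1) of the normoxia mean. By comparison, 33.6% of the 12923 tested genes were called, 19.3% lower and 14.3% higher (limma, adjusted p under 0.05). With T3 added, Ntrk2 and Sorcs3 fell further, by 0.42 and 0.82 on the log2 scale, while 6.48% of tested genes were called, 3.75% lower and 2.73% higher. Each of these T3 calls was lost when certain single libraries were left out, 4 of them for Ntrk2 and 5 for Sorcs3. The other 5 genes passed no test for T3. The median log2 change of the 7 genes was -0.42 with T3 against hypoxia and -0.78 in hypoxia against normoxia, beside medians over all tested genes of -0.01 and -0.0. All 7 genes passed the filter on low values. Because the RNA came from whole cultures, fewer cells of a type and less RNA per cell cannot be told apart.

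**Figure D1:**
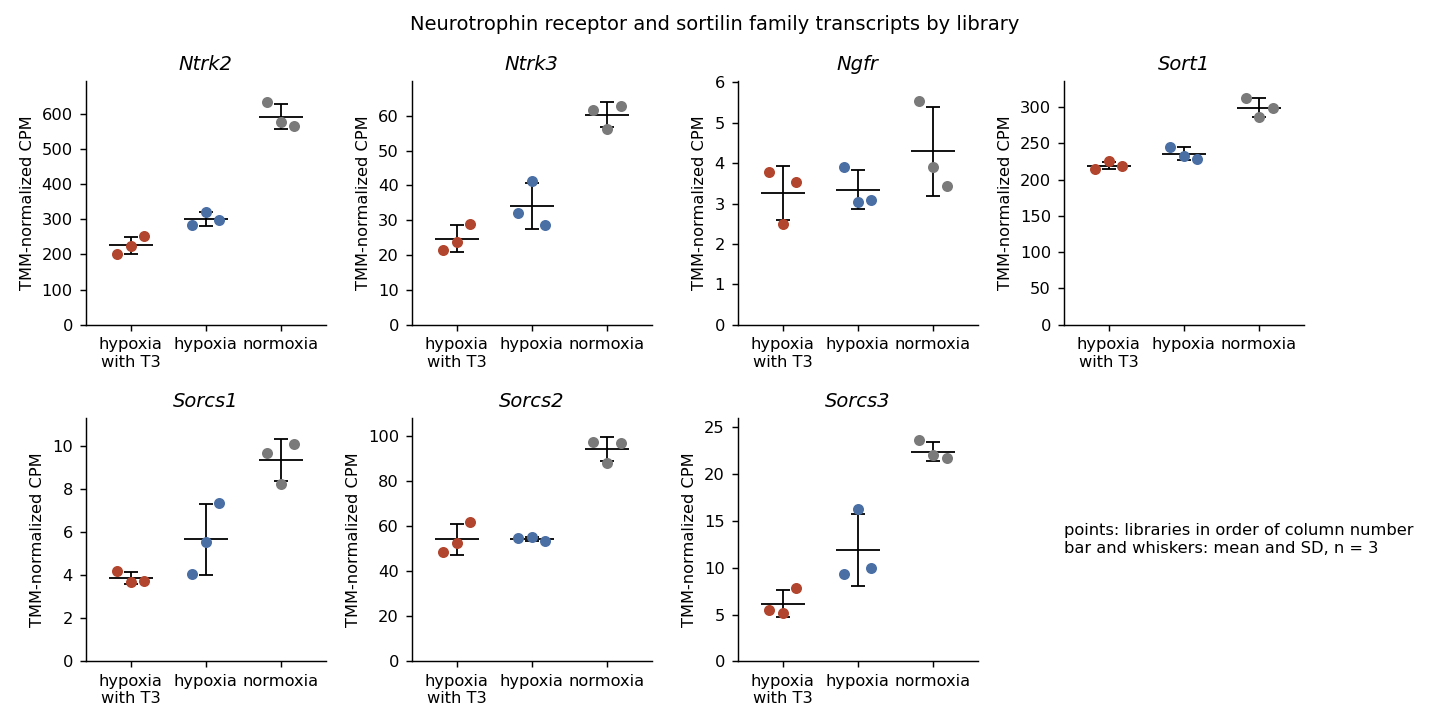
TMM-normalized CPM of the 7 genes in each of the 9 libraries, on an axis from 0 for each gene, with points for libraries and bars for the group mean and SD (n = 3). For Ntrk2, Ntrk3, Sort1, Sorcs1, Sorcs2 and Sorcs3 every normoxia point lies above every hypoxia and every T3 point, while the Ngfr points overlap across the groups.

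Promoters of Ntrk2, Ngfr and Sorcs3 are shown because these genes represent a fall in hypoxia and again with T3, no detected change, and the steepest fall with T3. They come from RefSeq on GRCm38.p6, and the promoter set used covered 4 of the 7 genes. Each runs 5′ to 3′ on the strand of its gene, within the 250 bases before the start and without annotated transcript. Capitals mark ACGTG or GCGTG, the core letters of the hypoxia response element, on either strand (CACGT or CACGC where read from the opposite strand; the searched letters do not overlap each other).
Ntrk2, chr13:58806319-58806471: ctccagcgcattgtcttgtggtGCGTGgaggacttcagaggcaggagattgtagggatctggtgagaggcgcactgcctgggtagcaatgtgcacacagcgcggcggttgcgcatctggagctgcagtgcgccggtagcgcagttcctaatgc
Ngfr, chr11:95587736-95587948: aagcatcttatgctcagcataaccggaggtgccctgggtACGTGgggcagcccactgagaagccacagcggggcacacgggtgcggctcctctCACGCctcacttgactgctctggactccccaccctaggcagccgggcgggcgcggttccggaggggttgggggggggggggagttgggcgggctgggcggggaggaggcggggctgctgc
Sorcs3, chr19:48205775-48206024: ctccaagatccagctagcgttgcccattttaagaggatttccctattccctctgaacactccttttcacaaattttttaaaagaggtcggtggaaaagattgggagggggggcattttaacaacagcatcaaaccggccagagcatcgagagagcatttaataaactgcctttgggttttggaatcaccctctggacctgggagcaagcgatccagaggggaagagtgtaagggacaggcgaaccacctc
Over the full 250 bases Ntrk2 held 3 such matches, 1 in the printed stretch and the others in annotated transcript left out of it. Ngfr held 2, and Sorcs1 and Sorcs3 none, while 38.6% of 32851 promoters held at least 1. AGGTCA, the half-site letters bound by thyroid hormone receptors, was found on neither strand of the 4 and in 14.0% of promoters. A match is a description of letters, not evidence of binding.

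Both Trk receptors fell in hypoxia, and Ntrk2 fell again with T3. Ntrk2 had 201, 225 and 252 CPM in hypoxia with T3, 283, 322 and 299 CPM in hypoxia and 633, 577 and 566 CPM in normoxia. The groups were ordered without overlap, with T3 lowest and normoxia highest. The means were 226 ± 25.1 CPM in hypoxia with T3, 301 ± 19.6 CPM in hypoxia and 592 ± 35.8 CPM in normoxia (SD, n = 3 each). For T3 against hypoxia the log2 change was -0.42 (SE 0.08, 95% interval -0.59 to -0.24, limma adjusted p = 0.022). This T3 call was lost without any 1 of T3 11, T3 12, hypoxia 7 or hypoxia 8 (adjusted p up to 0.11), and with no filter on low values (adjusted p = 0.055) or no variance trend (adjusted p = 0.059); over all alternatives the log2 change stayed below 0. For hypoxia against normoxia the 95% interval of the change was -1.15 to -0.8 on the log2 scale, and the call held in all 21 alternatives. The gene lies on chr13:58806472-59133970, plus strand, over 327.5 kb (GRCm38), and GENCODE M21 lists 10 transcripts. Full-length TrkB and the truncated forms that lack the kinase share the same row, so these values do not separate them.

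Ntrk3 fell in hypoxia and did not pass the test for T3. It had 21.5, 23.7 and 28.9 CPM in hypoxia with T3, 32.1, 41.3 and 28.5 CPM in hypoxia and 61.7, 56.2 and 62.9 CPM in normoxia. Both low-oxygen groups lay below normoxia, and T3 13 lay above hypoxia 9, so these groups overlapped. Hypoxia against normoxia gave a log2 change of -0.82 (SE 0.13, limma adjusted p = 0.0012), leaving 56.3% of the normoxia mean. Added T3 gave -0.44 (95% interval -0.73 to -0.14), which did not pass the test (limma adjusted p = 0.065). The T3 change passed without T3 13 (adjusted p = 0.023) or without hypoxia 9 (adjusted p = 0.039), and with library weights or DESeq2 on the recovered reads; its adjusted p ran up to 0.25 without T3 11. The ratio of Ntrk3 to Ntrk2 within a library was 10.9% in hypoxia with T3, 11.2% in hypoxia and 10.2% in normoxia on average, with overlapping libraries. Ntrk3 covers 401.0 kb of chr7:78179986-78581034 on the minus strand.

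Ngfr was low and did not separate the groups. It had 3.77, 2.5 and 3.53 CPM in hypoxia with T3, 3.9, 3.03 and 3.09 CPM in hypoxia and 5.54, 3.9 and 3.43 CPM in normoxia, from 69 to 133 recovered reads per library. The highest normoxia library stood apart from the rest, and all 3 groups overlapped. The log2 change was -0.03 with T3 against hypoxia (95% interval -0.41 to 0.35, limma adjusted p = 0.93) and -0.27 in hypoxia against normoxia (95% interval -0.65 to 0.11, limma adjusted p = 0.25). These intervals still allow a fall of the size seen in Sort1. The first of the 2 changes took either sign when single libraries were left out, from -0.12 to 0.1, and the second was -0.11 without normoxia 1. Ngfr is the shortest of the 7 genes, 18.9 kb at chr11:95568818-95587698 on the minus strand.

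**Figure D2:**
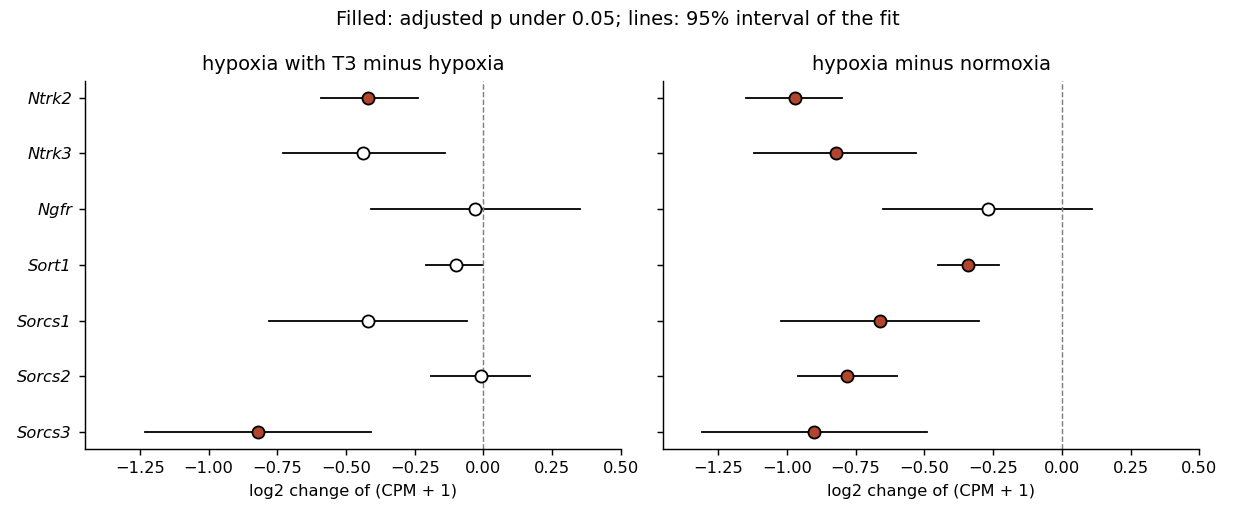
Log2 change of CPM + 1 for the 7 genes, hypoxia with T3 minus hypoxia on the left and hypoxia minus normoxia on the right, with 95% intervals of the fit; filled points have a limma adjusted p under 0.05. On the left Ntrk2 and Sorcs3 are filled and Sorcs2 sits at -0.01; on the right every gene but Ngfr is filled.

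Sort1 changed least among the genes that fell in hypoxia. It had 215, 225 and 219 CPM in hypoxia with T3, 245, 233 and 229 CPM in hypoxia and 312, 286 and 299 CPM in normoxia. The groups did not overlap, and the libraries of each group lay close together. Hypoxia against normoxia gave -0.34 (SE 0.05, limma adjusted p = 0.00065), and T3 against hypoxia gave -0.1 (95% interval -0.21 to 0.0, limma adjusted p = 0.2). A lack of overlap was common: 15.8% of tested genes lay wholly lower with T3 than in hypoxia, and 3 of the 7 genes did so (Ntrk2, Sort1 and Sorcs3). In hypoxia against normoxia 6 of the 7 lay wholly lower, beside 27.0% of tested genes.

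Sorcs2 fell in hypoxia, and no change with T3 was detected. It had 48.4, 52.5 and 61.7 CPM in hypoxia with T3, 54.7, 55.1 and 53.4 CPM in hypoxia and 97.6, 88.0 and 96.8 CPM in normoxia. The low-oxygen groups lay together, and both lay below normoxia. Its log2 change was -0.78 in hypoxia against normoxia (SE 0.08, limma adjusted p = 0.00011). For T3 against hypoxia it was -0.01 (95% interval -0.19 to 0.17, limma adjusted p = 0.95), and its sign turned to 0.06 without T3 11 and 0.01 without T3 12. SorCS2 is known as a partner of p75 in proneurotrophin signalling.

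Sorcs3 fell in both steps. It had 5.54, 5.19 and 7.79 CPM in hypoxia with T3, 9.38, 16.3 and 9.95 CPM in hypoxia and 23.6, 22.0 and 21.7 CPM in normoxia. The groups did not overlap, and hypoxia 8 lay well above the other hypoxia libraries. The log2 change was -0.9 in hypoxia against normoxia (SE 0.19, limma adjusted p = 0.0044) and -0.82 for T3 against hypoxia (95% interval -1.23 to -0.41, limma adjusted p = 0.034). Without hypoxia 8 the T3 change was -0.59 (adjusted p = 0.11). The T3 call was also lost without T3 11 (0.14), T3 12 (0.12), hypoxia 7 (0.059) or normoxia 2 (0.052), and under 3 other settings. SorCS3 is a postsynaptic protein of the hippocampus and cortex that takes part in synaptic depression in mice.

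Sorcs1 fell in hypoxia and did not pass the test for T3. It had 4.19, 3.69 and 3.73 CPM in hypoxia with T3, 4.07, 5.55 and 7.35 CPM in hypoxia and 9.66, 8.22 and 10.1 CPM in normoxia. Hypoxia 7 fell within the range of T3, and normoxia lay above both. Its log2 change was -0.66 in hypoxia against normoxia (SE 0.16, limma adjusted p = 0.011) and -0.42 for T3 against hypoxia (95% interval -0.78 to -0.06, limma adjusted p = 0.12). The T3 change was -0.24 without hypoxia 9 and -0.6 without hypoxia 7. SorCS1 is known for sorting neurexin and AMPA receptors. Sorl1, the remaining VPS10 gene, had 21.0 to 32.1 CPM in hypoxia with T3, 23.7 to 30.9 CPM in hypoxia and 25.8 to 33.2 CPM in normoxia, and passed neither test (limma adjusted p = 0.92 and 0.61).

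Hypoxia with T3 differed from normoxia by both low oxygen and added hormone, and it shares its libraries with the comparisons above. Here 6 of the 7 genes were lower, all but Ngfr (limma adjusted p = 0.16), beside 29.5% of tested genes called lower and 25.5% called higher. All 6 lay wholly below normoxia, as 33.0% of tested genes did. Among tested genes that span 300 kb or more of the genome, which include 5 of these 6, 90.5% were called lower. Their median log2 change was -1.0. Sorcs3 stood at 27.5% of the normoxia mean, Ntrk2 at 38.2%, Ntrk3 at 41.0% and Sorcs1 at 41.5%. Sorcs2 kept 57.6% and Sort1 73.4%.

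**Figure D3:**
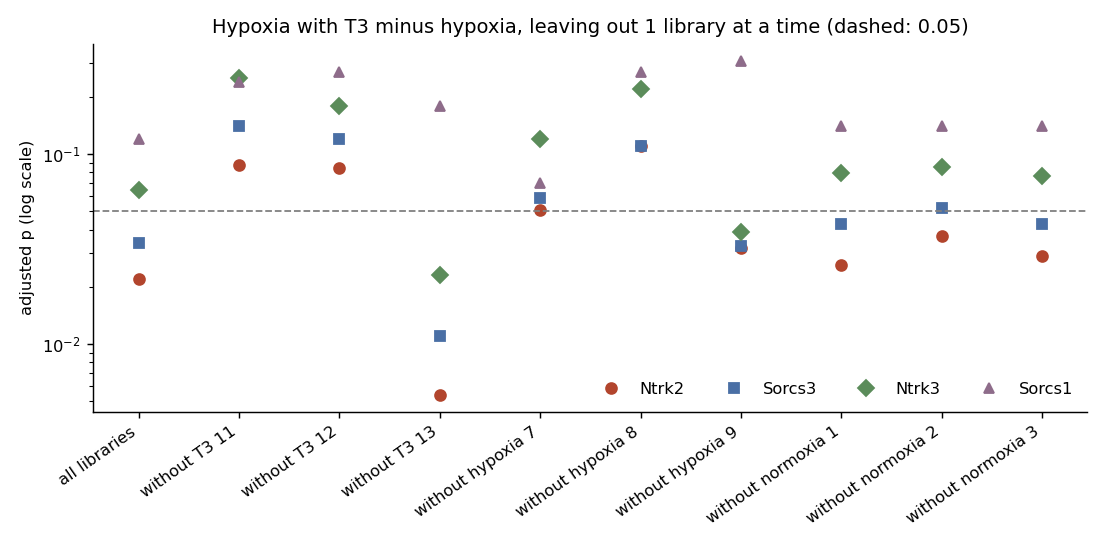
Adjusted p of Ntrk2, Sorcs3, Ntrk3 and Sorcs1 for hypoxia with T3 minus hypoxia, on a log axis, with all libraries and without each library; the dashed line marks 0.05. Ntrk2 and Sorcs3 cross above the line without T3 11, T3 12, hypoxia 7 or hypoxia 8, and all but Sorcs1 lie below it without T3 13.

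Per kilobase of the longest coding transcript, Ntrk2 and Sort1 led in every group, with 25.8 and 32.1 CPM per kb in hypoxia with T3, 34.5 and 34.5 CPM per kb in hypoxia and 67.7 and 43.7 CPM per kb in normoxia. Ntrk2 therefore stood above Sort1 in normoxia and no longer above it in either low-oxygen group; over merged exons, whose length for Ntrk2 is greater, Sort1 led in all 3 groups. Sorcs2 followed with 9.49, 9.53 and 16.5 CPM per kb in hypoxia with T3, hypoxia and normoxia. Sorcs3, Ntrk3, Ngfr and Sorcs1 stood at 0.535 to 3.98 CPM per kb throughout.

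Ratios between 2 of the genes in the same library do not depend on library scaling. Sort1 reached 107%, 99.9% and 86.9% of Ntrk2 in hypoxia with T3, 86.7%, 72.5% and 76.4% in hypoxia and 49.3%, 49.5% and 52.7% in normoxia. The 3 groups did not overlap, though T3 13 (86.9%) and hypoxia 7 (86.7%) nearly met. On average the ratio was highest with T3 and lowest in normoxia. Ngfr reached 1.46% ± 0.383 of Ntrk2 in hypoxia with T3, 1.12% ± 0.231 in hypoxia and 0.719% ± 0.14 in normoxia (SD, n = 3), with hypoxia and T3 overlapping and all of both above normoxia. Sorcs3 was 11.4%, 9.89% and 12.6% of Sorcs2 in hypoxia with T3, 17.1%, 29.6% and 18.6% in hypoxia and 24.2%, 25.0% and 22.4% in normoxia. Here T3 lay wholly below hypoxia, while hypoxia and normoxia overlapped; this pair was chosen after its values were seen, and no ratio was tested.

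**Figure D4:**
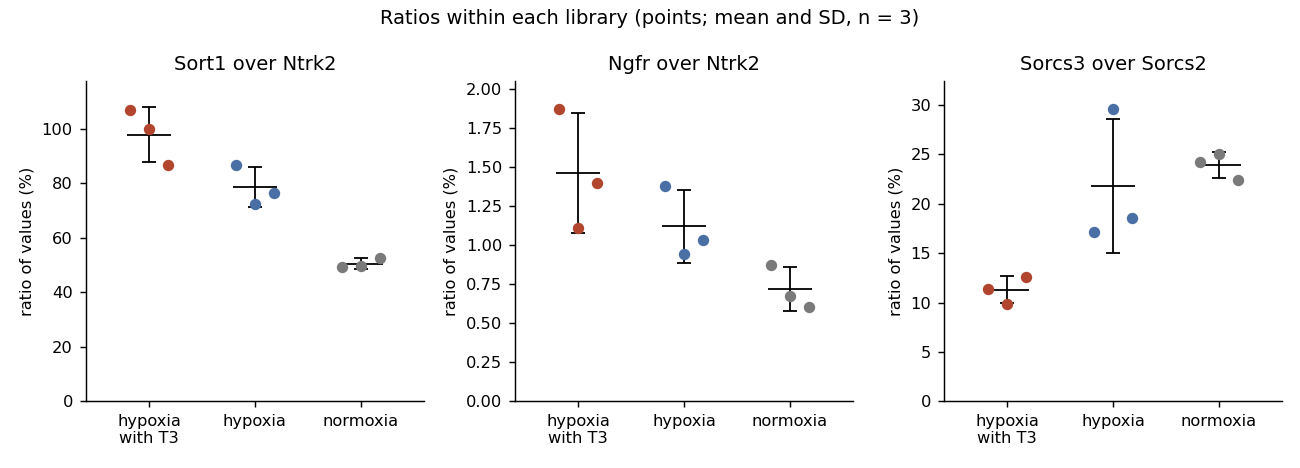
Ratio of CPM values within each library in percent, for Sort1 over Ntrk2, Ngfr over Ntrk2 and Sorcs3 over Sorcs2, with points for libraries and bars for mean and SD (n = 3). The first ratio averages 97.8% in hypoxia with T3, 78.6% in hypoxia and 50.5% in normoxia, and the last is lowest with T3.

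Most of the 7 genes are long, a feature that was not used to choose them: 5 of them, Ntrk2, Ntrk3, Sorcs1, Sorcs2 and Sorcs3, span 300 kb or more of the genome. Sorcs3 (chr19:48206025-48805505, plus strand) and Sorcs1 (chr19:50143295-50679129, minus strand) face each other across a gap of 1338 kb with no protein-coding gene between them. Sorcs2 lies on chr5:36017180-36398197 on the minus strand and Sort1 on chr3:108283974-108361519 on the plus strand. Among the 493 tested genes of 300 kb or more, the median log2 change was -0.35 for T3 against hypoxia and -0.61 for hypoxia against normoxia, and 25.2% and 78.5% were called lower. In genes under 10 kb these medians were 0.08 and 0.12. In hypoxia against normoxia the changes of the long members stood within a general shift of genes of 300 kb or more. In that comparison 16.8% of this span class lay below Ntrk2, 29.8% below Ntrk3, 22.5% below Sorcs3, 34.5% below Sorcs2 and 46.5% below Sorcs1. For T3 against hypoxia, 3.45% lay below Sorcs3 and 41.0% below Ntrk2, whereas 92.3% lay below Sorcs2. Ngfr and Sort1 are both under 100 kb. In hypoxia against normoxia Sort1 lay low in its own class, with 10.9% of genes below it. Below Ngfr lay 6.2% of its class, but its change did not pass the test and shrank to -0.11 without normoxia 1. The part of gene length in these changes was not tested.

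**Figure D5:**
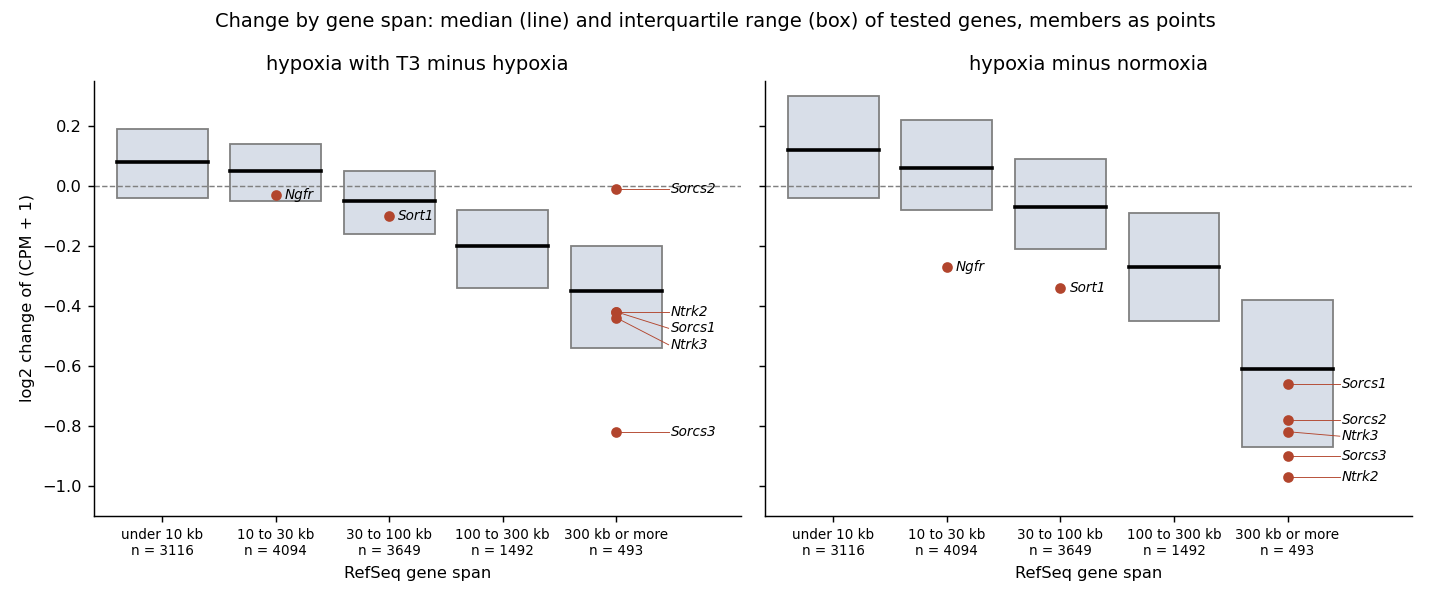
Log2 change of CPM + 1 in classes of RefSeq gene span, hypoxia with T3 minus hypoxia on the left and hypoxia minus normoxia on the right; boxes give the interquartile range and lines the median of tested genes, and points the 7 genes. The median drops with span in both panels, to -0.35 and -0.61 at 300 kb or more, where Sorcs2 on the left stands at -0.01.

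Of the ligands, Ntf3, which encodes NT-3, was at 1.03, 1.1 and 2.06 CPM in hypoxia with T3, 2.83, 3.03 and 2.23 CPM in hypoxia and 7.87, 5.26 and 5.18 CPM in normoxia. It fell in hypoxia by 0.93 on the log2 scale (SE 0.19, limma adjusted p = 0.0045). Its change with T3 against hypoxia was -0.65 (limma adjusted p = 0.063), although the groups did not overlap. Ntf5, which encodes NT-4, stayed at or under 0.817 CPM and was not tested. Bdnf is not described because 8 of its 9 values were not whole reads.

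Enzymes that cut proneurotrophins or other prohormones moved in both directions. Of 9 listed, 8 were tested, and in hypoxia 4 fell and 3 rose relative to normoxia, beside 19.3% of all tested genes lower and 14.3% higher. Pcsk2, a prohormone convertase of secretory granules, had 49.4 to 61.1 CPM in hypoxia with T3, 67.8 to 87.0 CPM in hypoxia and 132 to 147 CPM in normoxia; it fell by 0.89 on the log2 scale in hypoxia (limma adjusted p = 0.00014) and by a further 0.48 with T3 (limma adjusted p = 0.025). Pcsk5, Pcsk6 and Pcsk1, also convertases, fell by 0.82, 0.86 and 0.64 in hypoxia. Mmp9 (0.61), Plat (0.58) and Pcsk7 (0.24), named after their values were seen, rose in hypoxia on the same scale. Mmp9 and tissue plasminogen activator, made by Plat, belong to extracellular routes of proneurotrophin cleavage.

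Of 15 tested partners and adaptors of p75, 4 fell and 2 rose in hypoxia against normoxia, near the 19.3% lower and 14.3% higher of all tested genes. Rtn4rl1, a Nogo receptor relative, fell by 0.66 (limma adjusted p = 0.0025), the Nogo receptor gene Rtn4r by 0.48 and its partner Lingo1 by 0.29; Zfp110, a zinc finger protein that binds p75, rose by 0.39. With T3 against hypoxia 1 of 15 was called, near the 6.48% of all tested genes. It was Rtn4rl1, which fell by 0.54 (limma adjusted p = 0.034). Of 9 sheddases and gamma-secretase subunits, which cut p75 and sortilins at the membrane, 2 fell and 1 rose in hypoxia, among them Adam10 (-0.26) and Adam17 (0.44), and none was called with T3. Of 19 sortilin cargoes and sorting partners, 4 fell and 1 rose in hypoxia, among them App (-0.28), Snx27 (-0.3), Appl1 (-0.2) and M6pr (0.31), and none was called with T3. Both lists are to be read against the same background in hypoxia, and against 6.48% of all tested genes called with T3.

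Downstream of the Trk receptors, 5 of 20 adaptors and effectors fell and 2 rose in hypoxia against normoxia, near the shares of all tested genes (19.3% lower, 14.3% higher). Rapgef1, a guanine nucleotide exchange factor, fell by 0.25 and Plcg1 by 0.19, while the adaptors Sh2b1 and Irs2 rose by 0.28 and 0.31. With T3 against hypoxia 1 of 20 was called, beside 6.48% of all tested genes, the Ras activator Sos1, which fell by 0.31 (limma adjusted p = 0.044). Of 23 genes of the Ras-MAPK, PI3K and CREB routes, 9 fell and 3 rose in hypoxia, set against the same background. Pik3r1 fell by 0.38, and Map2k1 rose by 0.5 (limma adjusted p = 5.8e-05). With T3, Pik3r2 rose by 0.18 and Pdpk1 fell by 0.25; Crebbp was also called (0.33) but 6 of its 9 values were not whole reads.

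Many of these list calls were small and depended on scaling. With columns scaled to equal sums, the median of all tested genes moved to 0.13 in hypoxia against normoxia; 0 of the 20 Trk adaptors then fell and 5 rose, 0 of the 9 sheddases and secretase subunits fell and 4 rose, 2 of the 15 p75 partners fell and 3 rose, 2 of the 19 sortilin partners fell and 6 rose, and 5 of the 23 Ras-MAPK, PI3K and CREB genes fell and 5 rose. The convertases kept 4 and 3, and 6 of the 7 receptor and sortilin genes still fell, with Ntrk2 at -0.83 and Sort1 at -0.2. Over all tested genes that scaling turned 1846 higher and 2497 lower calls into 3974 higher and 1232 lower. Leaving out single libraries also lost the hypoxia calls of Adam17, Lingo1, Rtn4r, Zfp110, M6pr, Appl1 and Pik3r2, with adjusted p up to 0.1, and the T3 calls of Sos1, Rtn4rl1, Pcsk2, Crebbp, Pik3r2 and Pdpk1; Mmp9, Plat and Pcsk7 were not refitted in this way.

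Markers of other cells moved with the groups in part. The 12 pan-neuronal markers summed to 8430 to 8640 CPM in hypoxia with T3, 8280 to 8920 CPM in hypoxia and 10200 to 11100 CPM in normoxia. In hypoxia 6 of them fell and 2 rose against normoxia. This and the marker counts below are to be read beside 19.3% of all tested genes called lower and 14.3% called higher. The 14 astrocyte markers summed to 761 to 951, 636 to 920 and 535 to 642 CPM in the same order; 12 were tested, and 3 rose in hypoxia against normoxia. Slc1a3, an astrocyte glutamate transporter gene, had 38.6, 73.7 and 34.0 CPM in hypoxia with T3, 16.4, 52.9 and 82.5 CPM in hypoxia and 5.0, 22.1 and 45.1 CPM in normoxia, and so varied widely within each group. Aldoc averaged 25.2, 22.7 and 5.58 CPM and Ndrg2 50.0, 54.4 and 28.2 CPM in that order of groups. The Aldoc values overlapped, with 7.97 CPM in hypoxia 7 and 9.18 CPM in normoxia 3. Slc1a2, also on the list, averaged 180, 171 and 169 CPM in the same order. Slc1a2, Glul and Atp1b2 had 170, 109 and 247 CPM of the 571 CPM summed in normoxia 1, and so made up most of that sum. In normoxia 3 they had 198, 111 and 201 CPM of 642 CPM. The higher sum there came from other markers on the list, such as Slc1a3. Gfap reached at most 4.63 CPM, Aqp4 at most 5.72 CPM, and Gjb6 was at 0 in all libraries but T3 13. Oligodendrocyte lineage markers summed to 135 to 192 CPM in hypoxia with T3, 80.5 to 217 CPM in hypoxia and 41.4 to 145 CPM in normoxia, with 1 of 9 tested genes higher in hypoxia, and progenitor markers to 194 to 363, 128 to 392 and 64.2 to 256 CPM with none called. Microglia markers stayed at or under 8.73 CPM, endothelial and mural markers at or under 2.89 CPM, and fibroblast and Schwann markers, of interest for Ngfr, at 22.7 to 33.8 CPM in all libraries. Of these lists the pan-neuronal one alone lay wholly lower in hypoxia than in normoxia. Rn45s, a ribosomal RNA precursor that selection for poly(A) should remove, took 1.04% to 2.65% of the summed values in hypoxia with T3, 1.04% to 1.33% in hypoxia and 3.25% to 4.21% in normoxia. The part of cell makeup or of ribosomal RNA in the receptor changes was not tested.

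Patterns across the 9 libraries were close for most of the genes, as a description over libraries that share the group structure. Pearson's r of log2 values was 0.98 between Ntrk2 and Ntrk3 and between Ntrk3 and Sorcs3, 0.97 between Ntrk2 and Sort1, and 0.45 to 0.62 between Ngfr and the other 6. Outside the 7 genes, Pkp4 (r = 0.999), Wdr17 and Coro1c (both 0.996) were nearest to Ntrk2, and 926 tested genes reached r of at least 0.95 with it. Nearest to Ntrk3 were Ptk2b, Gmds and Rptor (0.996 to 0.997), to Sort1 B3gnt2, Secisbp2l and Fam171b (0.993), and to Sorcs2 Mapk6 (0.995), Dync1i1 (0.992) and Epha5 (0.989). Lingo2, Fam155a and Nckap5 were nearest to Sorcs3 (0.993 to 0.994), and Lrrtm4, Clip4 and Sumf1 to Sorcs1 (0.968 to 0.98). Ngfr had 1 gene at 0.95 or more, Atg13 (0.952).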

How the data were processed

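Polyadenylated RNA of 9 libraries was read from 1 deposited table of 24054 gene rows. It holds a scaled signal made by the authors, CPM after TMM normalization. The tools named in the submitters' processing notes are RSEM 1.2.15, Bowtie2 2.1.0 and edgeR, and the genome build is mm10. The library kit is stranded per the labels' protocols; whether counting used strand is not given in the sources used here, and Psapl1, inside Sorcs2 on the opposite strand, never exceeded 0.033 CPM. Within a column the values are multiples of 1 read: 99.89% to 100.0% came out whole (within 0.01 reads), and 35 rows held 142 values that did not. Recovered reads are not molecules. Libraries were grouped by column name, and 1 unnamed column was not used.

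Genes above 1 CPM in at least 3 libraries (12923) were fitted with limma 3.58.1 in R 4.3.3 (lmFit, eBayes with a trend, 9 libraries, 6 residual degrees of freedom) on log2(value + 1), two-sided, with Benjamini-Hochberg adjustment over all tested genes and a threshold of 0.05. Since the scale adds 1 before the logarithm, it understates changes of low genes such as Ngfr, Sorcs1 and Sorcs3. The fit was also run on simulated counts in which few genes changed, unlike these data, and no result here rests on that run. edgeR 4.0.16 on recovered reads called 752 genes for T3 against hypoxia, 4288 for hypoxia against normoxia and 7093 for T3 against normoxia, and DESeq2 1.42.0 was a further alternative. Gene spans came from RefSeq (99.4% of tested genes) and transcripts from GENCODE M21, both on GRCm38, the assembly of mm10.

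The members and the pathway and marker lists were chosen with earlier results of these data known. Named genes are the 7 members, Sorl1, up to 4 genes per pathway list and comparison with the smallest adjusted p, the 3 nearest patterns per member, and Slc2a1, Hk2 and Thrb. Outside this rule, Mmp9, Plat, Pcsk7 and the single astrocyte markers were picked with their values in view. Some other genes that this rule names are not reported here.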

Additional observations from a re-analysis of the deposited data

How the results depend on the processing

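Of 21 alternatives per comparison, the 6 falls in hypoxia against normoxia and the 6 in hypoxia with T3 against normoxia held in all, and Ngfr passed for T3 against normoxia with library weights only (adjusted p = 0.025). For T3 against hypoxia neither call held in all. The 2 members called became 0 with no filter, 1 with only the 2 groups fitted, 0 with no variance trend, 4 with library weights, and 0 to 3 when single libraries were left out. The 838 genes called became 172, 275, 234 and 3050 under the same settings, 1728 with DESeq2 on recovered reads, and 31 to 1817 when single libraries were left out. Sorcs3 also missed the threshold with no filter (0.073), only the 2 groups (0.061) or no variance trend (0.066). Sorcs1 passed for T3 with library weights (adjusted p = 0.039). When single libraries were left out, the T3 change ran from -0.12 to 0.1 for Ngfr and from -0.11 to 0.06 for Sorcs2. The sign of Ngfr turned to 0.1 without T3 12 and 0.06 without hypoxia 7, and that of Sorcs2 to 0.06 without T3 11 and 0.01 without T3 12. The cause was not tested. Ngfr has no value under a mean of at least 5 CPM. At equal column sums T3 against hypoxia had 284 genes higher and 697 lower, in place of 353 and 485. No paired analysis was possible because the columns carry no replicate number of the sample titles. Depth limits Ngfr most, with 69 to 133 reads per library.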
